A study of Mus musculus with 12 samples.

Results

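Ahnak, Bod1l, Macf1, Herc2 and Ubr4 are 5 mouse genes with very long transcripts that carried among the most peaks per gene in maps of RNA methylation and of YTHDF2-bound RNA in inflammatory macrophages. They were picked by peak count. Ahnak, Bod1l and Macf1 held the most peaks in the list of N6-methyladenosine (m6A) peaks, and Herc2 and Ubr4 came next after Gm20388 in the list deposited as YTHDF2 peaks. They are 5 of 27013 genes in the expression table. Their counts in the list that chose them are therefore a description and were not tested.

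The study compared wild-type (WT) mice with Ythdf2 conditional knockout (cKO) mice, both on the C57BL/6 strain. The age of the mice, their number and the driver of the deletion are not given in the sources used here. Bone marrow of both genotypes was cultured for 7 days with 20 ng/ml M-CSF, which yields macrophages, and then stimulated over 24 hours by LPS at 100 ng/ml together with interferon gamma at 20 ng/ml, so all groups hold stimulated, M1-type cells and no group is unstimulated. There were 12 libraries in 6 groups of 2: m6A immunoprecipitates and their inputs for WT and for cKO, and a YTHDF2 immunoprecipitate with its input for WT. The labels number the replicates without saying that they came from separate mice, so p-values may measure technical spread only.

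The macrophage markers Adgre1, Cd68 and Csf1r had mean normalized counts of 107430, 33157 and 29752 in the authors' deposited table, and of 5 T and B cell markers the highest was Ms4a1 at 14.2. The lowest macrophage marker was Mrc1 at 416. Of 5 neutrophil markers S100a9 was at 326 and S100a8 at 304, and the others were at or below 1.08. The markers also differed between genotypes in that table: of 7 macrophage markers 1 was called on the side of Ythdf2 (Cd68, 0.40 ± 0.11 on the log2 scale) and 3 on the other (Lyz2 at −1.49 ± 0.33, Mrc1 at −0.78 ± 0.21, Itgam at −0.55 ± 0.11). Of 5 markers of the M1 state 2 were called on the side of Ythdf2, and of 5 fibroblast markers 1, Col1a1, in a list with mean counts of 7.79 to 580 in the authors' deposited table. Without the filter on low mean counts the adjusted p of Cd68 was 0.055 and that of Col1a1 0.12, and after centring on abundant genes 0.057 and 0.088, so neither stayed called. Adgre1 was called on the negative side after centring only (adjusted p 0.025, from 0.056 as deposited by the authors' Wald test). The part of these differences in the values of the 5 genes was not tested, and a shift in cell types cannot be told apart from less RNA per cell. The files hold 0 columns of values per library. Each peak list is a single list for the WT group, so no spread between replicates can be given for any peak, and the depth behind it is unknown. The labels tie the second list to YTHDF2, but 100% of its 17843 peaks bear names that start with "m6a_peak"; whether its peaks come from other libraries than labelled was not tested. The direction of the fold change between genotypes is not stated. In the authors' deposited table Ythdf2 itself had a log2 fold change of 1.10 ± 0.16 (SE, 2 libraries a genotype; their Wald test, adjusted p 2.1e-09), so positive values in the text are on the side of Ythdf2.

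m6A is a methyl mark that a nuclear enzyme complex places on adenosines of mRNA. It is best known from long internal exons and from the region around stop codons. YTHDF2 is a cytoplasmic protein that binds the mark through its YTH domain and recruits the deadenylase machinery that shortens the poly(A) tail, so that bound transcripts decay faster. The 5 genes encode unrelated giant proteins. Ahnak is a scaffold under the plasma membrane that binds the S100A10-annexin A2 complex. Macf1 is a spectraplakin that links actin filaments to microtubules. Bod1l protects stalled replication forks and works with the histone methyltransferase SETD1A. Herc2 is a HECT-type ubiquitin ligase of the DNA damage response, and Ubr4 is a ubiquitin ligase of the N-degron pathway, which recognises destabilising N-terminal residues.

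The 5 genes differed in which list they led. In the m6A list Ahnak carried 20 peaks, Bod1l 15, Macf1 15, Herc2 1 and Ubr4 0. In the YTHDF2 list the order was different, with Herc2 at 41, Ubr4 at 34, Macf1 at 26, Ahnak at 7 and Bod1l at 3. Macf1 was high in both, at rank 2 by m6A peaks, tied with Bod1l, and at rank 7 by YTHDF2 peaks. Genes with at least 1 peak had a median of 1 m6A peak over 5447 genes and of 2 YTHDF2 peaks over 7596 genes. The genes just outside the choice were Cep350, Spen and Tpr with 13 m6A peaks each and Lrp1 with 33 YTHDF2 peaks. Gm20388 held 111 YTHDF2 peaks and is no member; of these, 100 were also named for another gene, over 39 genes.

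**Figure D1:**
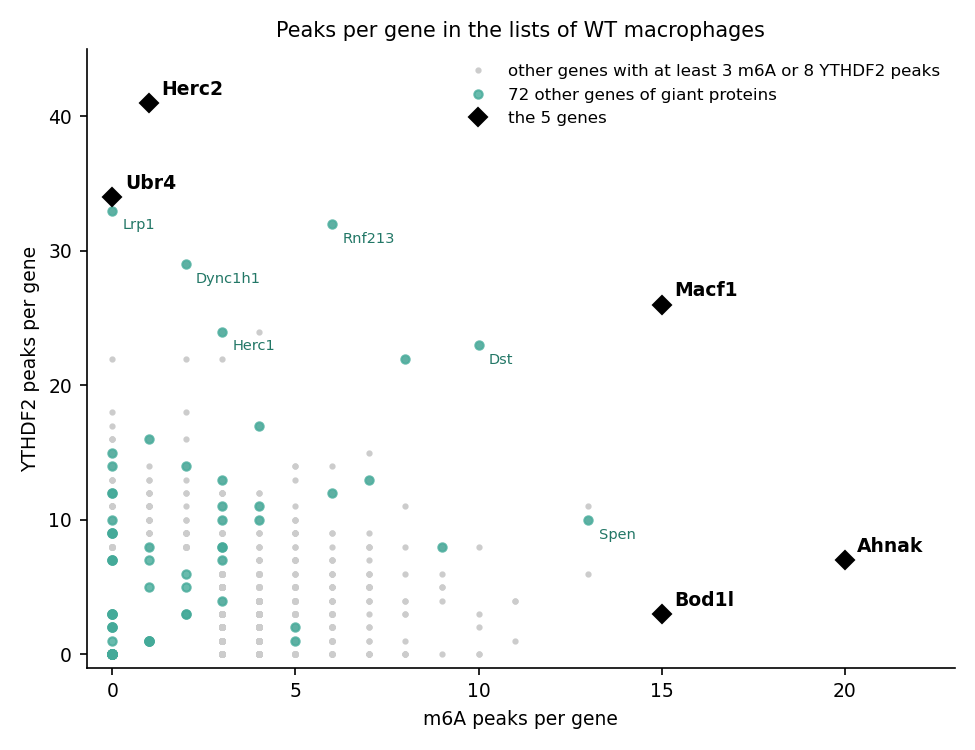
Peaks per gene in the m6A list (horizontal axis) and the YTHDF2 list (vertical axis) of WT macrophages; diamonds are the 5 genes, green points 72 other genes of giant proteins, and grey points other genes with many peaks, with Gm20388 (111 YTHDF2 peaks) outside the frame. Herc2 (41) and Ubr4 (34) lie at the upper left with 1 and 0 m6A peaks, Ahnak (20) and Bod1l (15) at the lower right, and Macf1 is high on both axes.

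Across 10555 tested genes with a RefSeq length, the counts in the 2 lists had a Spearman correlation of 0.35, given as a description, since both counts also moved with the mean normalized count (0.43 for m6A and 0.52 for YTHDF2). Genomic length moved with them less (0.13 and 0.23). Of 117 tested genes with at least 10 YTHDF2 peaks, 81 (69.2%) carried an m6A peak, against 45.4% of all 10778 tested genes. Ubr4 was among those without one.

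The m6A peaks of Ahnak formed an almost continuous block (chromosome 19, gene at 8989284 to 9076935, mm10, 87.7 kb, plus strand). All 20 peaks lay within 19.6 kb, from 8999002 to 9018613, and covered 71.8% of that stretch. The shortest spanned 50 bp and the longest 1925 bp (9009939 to 9011863), with a median of 716 bp. Of the 19 gaps between neighbours 6 were shorter than 100 bp, and the narrowest was 25 bp, the step in which most peaks of this list are measured. The 7 YTHDF2 peaks of Ahnak lay mostly in the same block. The longest reached from 9011360 to 9019087, 7728 bp, and the next from 9001586 to 9005157, 3572 bp, with fold enrichments of 2.71 and 2.64 over input, as the authors deposited them. The remaining peak lay apart, at 9076497 to 9076826, with its summit in the 3′ UTR and the highest fold enrichment of the gene, 3.45.

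The deposited list annotates 6 of these 7 YTHDF2 summits as intronic. It names a single transcript of Ahnak, whose intron numbered 3 in the list (9000864 to 9037159, 36.3 kb) contains 18 of the 20 m6A peaks whole and touches 19. Ahnak is known for a giant exon that codes for nearly all of its protein, used by its long isoform, and exon coordinates of that isoform were not used here. The label "intron" for Ahnak therefore refers to the short transcript alone. Of the 20 m6A peaks, 18 (90.0%, 95% exact binomial interval 68.3 to 98.8, counting error only) shared 1 bp or more with a YTHDF2 peak, against 48.9% of 9238 placed m6A peaks in genes outside the 5. By length, 82.7% of the m6A-covered bases of Ahnak lay under a YTHDF2 peak. The YTHDF2 peaks of Ahnak were wide, with a median of 1311 bp against 388 bp over the whole list. Those in this intron covered 15795 bp, beside an m6A block of 19.6 kb. The part of that coverage in the overlap was not tested. The pair with the largest overlap, 1240 bp, joined the m6A peak at 9009939 to 9011863 with the YTHDF2 peak at 9009977 to 9011216, which lay whole inside it. Peaks of 1 gene share its RNA and are not replicates, so this share was not tested against the rest.

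**Figure D2:**
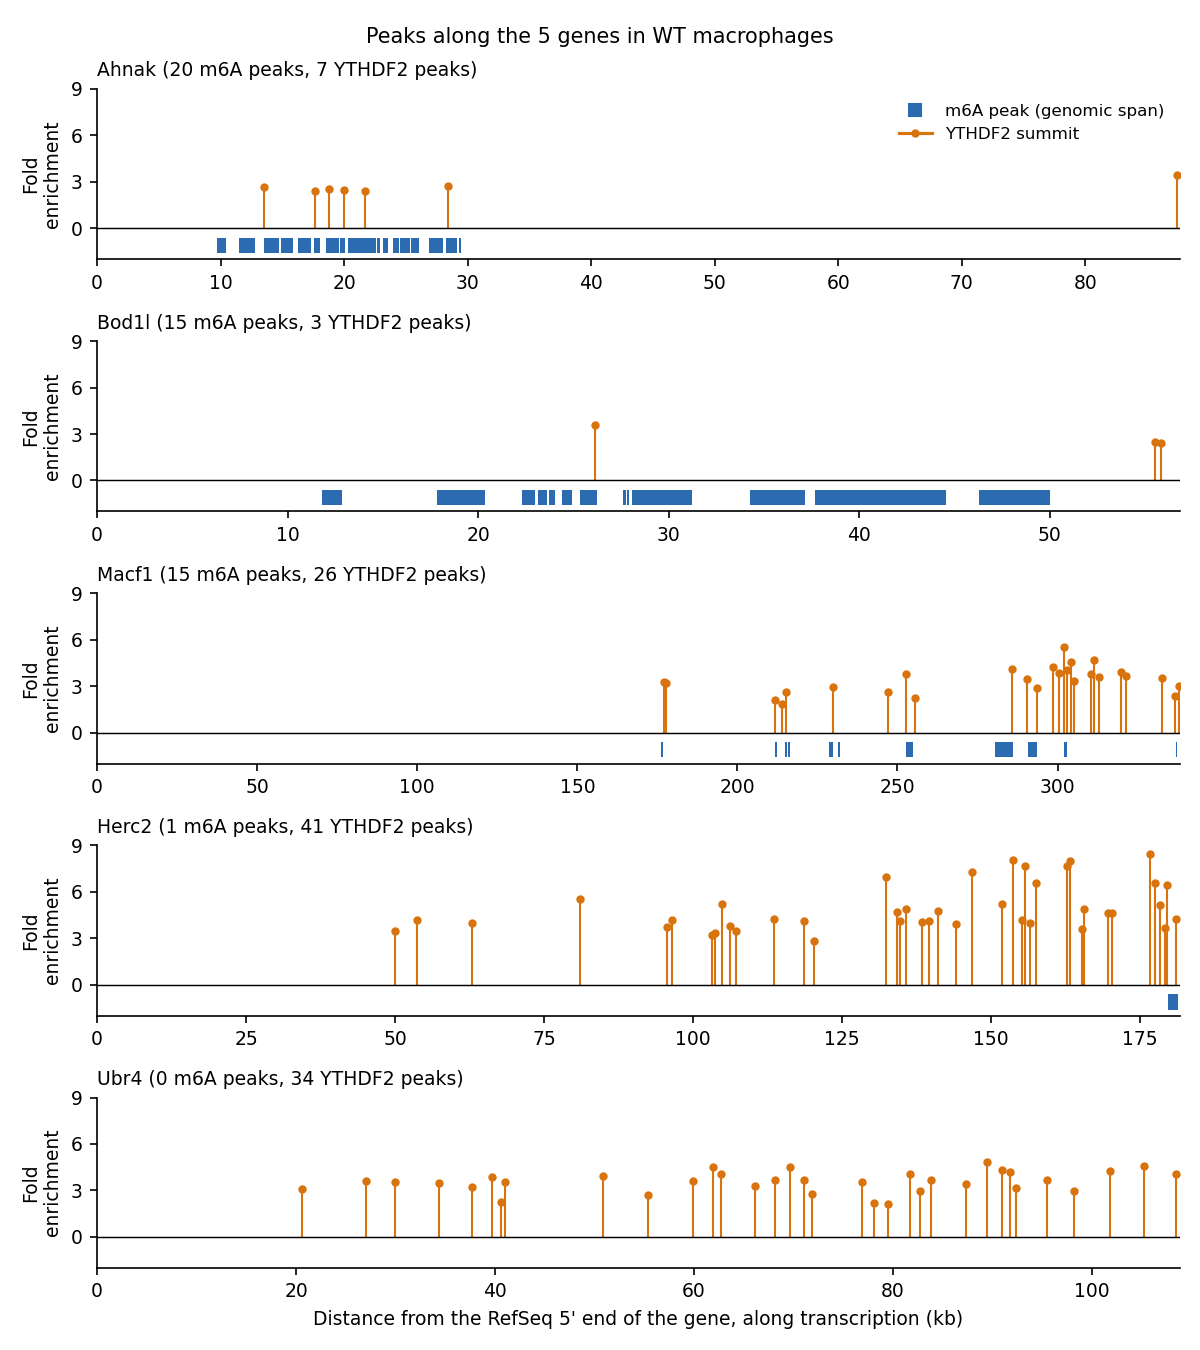
Peaks along each of the 5 genes in WT macrophages, by distance in kb from the RefSeq 5′ end in the direction of transcription; blue bars are genomic spans of m6A peaks, which can cross introns, and orange stems are YTHDF2 summits with their height as the fold enrichment over input. In Ahnak both kinds share 1 block of about 20 kb, in Bod1l the m6A bars lie mostly away from the 3 YTHDF2 summits, and in Herc2 and Ubr4 many narrow summits stand over a gene with 1 and 0 m6A peaks.

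Bod1l (chromosome 5, 41787538 to 41844355, minus strand, 56.8 kb) carried as many m6A peaks as Macf1 in a gene a fraction of its length. Per kb of gene it had 0.26 m6A peaks, beside 0.23 in Ahnak and 0.044 in Macf1, with a median of 0.065 over 4826 tested genes with an m6A peak. A single coding exon of 5952 bp (41816209 to 41822160) held 7 of the 15 peaks whole and was touched by 1 more, and m6A peaks covered 54.5% of it. The other peaks had longer genomic spans, up to 6787 bp (41799920 to 41806706), and 7 of 15 exceeded 1000 bp, so they may hold introns.

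YTHDF2 peaks in Bod1l were few and placed differently. The highest, with a fold enrichment of 3.55, ran for 2985 bp through the giant exon (41816359 to 41819343). The other pair lay at the end of the gene, at 41788770 to 41789032 and 41788177 to 41788624, the first with its summit in the last coding exon (fold enrichment 2.50) and the second in the 3′ UTR (2.45). Only 3 of 15 m6A peaks (20.0%, interval 4.33 to 48.1) overlapped a YTHDF2 peak, all 3 in the giant exon, and 5 other m6A peaks touching the same exon did not. The m6A-covered bases of Bod1l lay under a YTHDF2 peak for 5.04% of their length. That length, 23.3 kb, sums genomic spans that may hold introns, so this share is not set against that of Ahnak.

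Macf1 (chromosome 4, 123349633 to 123687802, minus strand, 338 kb) was the longest of the 5 and mixed both patterns. Its giant coding exon of 5330 bp (123471008 to 123476337) held 3 m6A peaks and was touched by 3 YTHDF2 peaks, and all 3 m6A peaks overlapped one. Over the gene, 11 of 15 m6A peaks (73.3%, interval 44.9 to 92.2) overlapped a YTHDF2 peak. The share was 20.0% when at least 50% of the m6A peak had to be covered. The m6A spans of Macf1 reached 5725 bp, and its YTHDF2 peaks had a median width of 257 bp.

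Both kinds began far into Macf1, with the first m6A peak 175973 bp and the first YTHDF2 summit 177 kb after the 5′ end of the RefSeq gene. Where its transcripts start in these cells was not tested. The first m6A peak (123511195 to 123511829) and the first YTHDF2 peak (123510754 to 123511335) overlapped each other, and 21 of the 26 YTHDF2 summits lay in the last of 3 equal parts of the gene. The highest fold enrichments were 5.52 at 123385546 to 123385804, 4.72 at 123376471 to 123376682 and 4.57 at 123383147 to 123383586. The peaks touching the giant exon were lower, at 2.63, 2.11 and 1.85.

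Herc2 (chromosome 7, 56050124 to 56231800, plus strand, 182 kb) showed a ladder of narrow YTHDF2 peaks along its exons. Its 41 peaks had a median width of 244 bp, against 388 bp over the whole list, and 30 were shorter than 300 bp. They touched 50 of its 92 coding exons, which measured 81 to 272 bp. The fold enrichment ranged from 2.83 to 8.44 with a median of 4.27, and 40 of 41 peaks lay above the median of all pairs of peak and gene, 3.01. The highest peak, 8.44, lay at 56226356 to 56226951 over coding exons 86 and 87. It was followed by 8.05 at 56203594 to 56203870 over coding exon 71 and 7.96 at 56213302 to 56213550 over coding exon 80. The lowest sat at 2.83 over a pair of neighbouring exons in the middle of the gene.

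Coverage of Herc2 grew along the transcript. With the coding exons split in order into 4 blocks of 23, peaks touched 5, 9, 16 and 20 of them. The first peak lay over coding exons 12 and 13, 50.0 kb into the gene. In 3 equal parts of the gene the summits numbered 2, 12 and 27, with median fold enrichments of 3.83, 3.89 and 4.90. The only m6A peak (56229865 to 56231500, 1636 bp) lay at the end of the gene, across the stop codon, and the last YTHDF2 peak (56230697 to 56231465) lay whole inside it, with its summit in the 3′ UTR and a fold enrichment of 4.26. The other 40 YTHDF2 peaks of Herc2 overlapped no m6A peak.

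Ubr4 (chromosome 4, 139380659 to 139489533, plus strand, 109 kb) had the same ladder and no m6A peak in the list. Its 34 YTHDF2 peaks had a median width of 241 bp, 29 of them under 300 bp, and touched 40 of 106 coding exons. Per kb of gene it had 0.31 peaks and Herc2 0.23, against a median of 0.081 over 6949 tested genes with a peak. The fold enrichment was more even than in Herc2, from 2.14 to 4.80 with a median of 3.61. The highest peaks were 4.80 at 139470032 to 139470249 over coding exon 92, 4.57 at 139485836 to 139486046 over coding exon 105 and 4.54 at 139442508 to 139442734 over coding exon 59. In 4 blocks of coding exons, 4 of 27, 8 of 26, 14 of 27 and 14 of 26 were touched. No peak of Ubr4 had its summit in the 3′ UTR; the last one (139489028 to 139489475) reached into it.

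**Figure D3:**
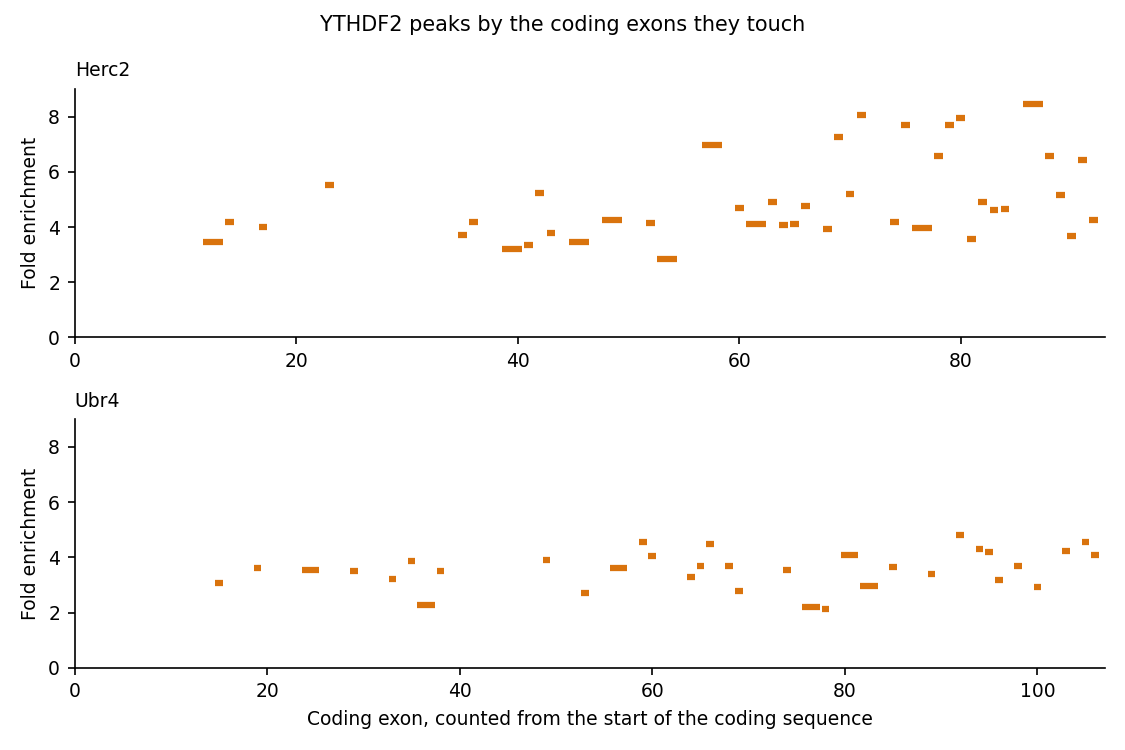
YTHDF2 peaks of Herc2 and Ubr4 by the coding exons they touch, counted from 1 at the start of the coding sequence of the transcript that the list names; each bar is 1 peak, spanning all coding exons it touches, at its fold enrichment over input. Peaks are denser toward the end of both genes, and those of Herc2 reach 8.44 while those of Ubr4 stay at or below 4.80.

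The narrow peaks of Herc2, Ubr4 and Macf1 sat on the acceptor side of exons, the boundary where an intron ends and the next exon begins. All 41 peaks of Herc2 and all 34 of Ubr4 covered such a boundary, as did 22 of 26 in Macf1 (84.6%, exact interval 65.1 to 95.6). In Ahnak and Bod1l 1 peak each did. A donor boundary, where an exon ends and an intron begins, was covered in addition by 9 peaks of Herc2, 6 of Ubr4 and 4 of Macf1, and by itself in 0 of the 111 peaks of the 5 genes. Over the 18933 pairs of peak and gene outside the 5, 56.3% covered an acceptor, and 0.650% a donor alone. Of those pairs 36.8% had their summit in the 3′ UTR. The shortest peaks measured 200 bp in Herc2 and in Ubr4 and 201 bp in Macf1. The coding exons they touched had medians of 164.5, 170.5 and 171 bp, and a peak longer than its exon has to cross a boundary. The part of exon length in these shares was not tested. Herc2 and Ubr4 lie on the plus strand and Macf1 on the minus strand. The acceptor measures were not among those planned beforehand.

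Summits gathered at the boundary itself. In Herc2 35 of 41 summits lay within 50 bp of the nearest covered acceptor, in Ubr4 32 of 34 and in Macf1 19 of 22. The median position was 4 bp before the exon in Herc2, with a range from 74 bp before it to 382 bp inside it. In Macf1 the median lay 8 bp inside the exon. Among the 10655 pairs outside the 5 genes that covered an acceptor, the median lay 31 bp inside, and 50.8% were within 50 bp. Of these, 216 pairs came from the 10 genes with at least 20 YTHDF2 peaks, Gm20388 left out. Their median lay at 0 bp, and 78.2% were within 50 bp. From the acceptor, the peaks of Herc2 reached a median of 154 bp back toward the intron and 82 bp forward, and those of Ubr4 160 and 74 bp. In all genes outside the 5 these values were 138 and 198 bp, and in those 10 genes 159.5 and 94 bp. Peaks covering an acceptor had a median width of 241 bp in Herc2 and Ubr4 together. It was 284 bp in those 10 genes and 368 bp in all genes outside the 5. The part of peak width in these distances was not tested.

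**Figure D4:**
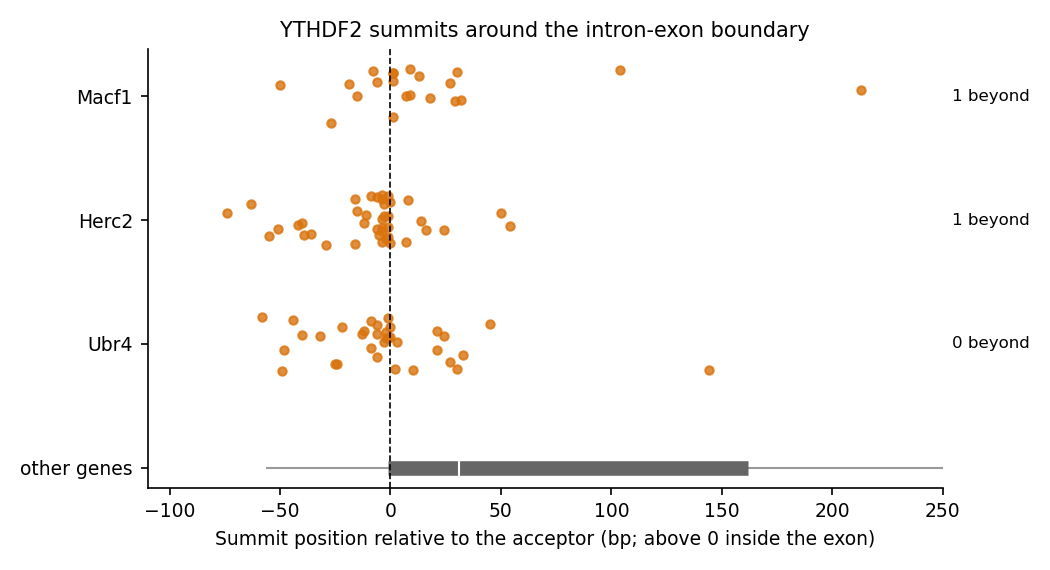
Position of YTHDF2 summits relative to the nearest acceptor that the peak covers, in bp, with values above 0 inside the exon. Each point is 1 peak (height within a row is random), and summits beyond 250 bp are counted at the right. The bar for other genes gives the median (31), the middle 50% and the middle 90% of 10655 pairs of peak and gene. The range of the middle 90% is cut at 250 bp in the drawing and reaches 621 bp. Most points of Ubr4, Herc2 and Macf1 lie within 50 bp of the boundary.

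Taking the listed feature that holds the summit, 33 of 41 summits of Herc2 (80.5%), 23 of 34 of Ubr4 (67.6%) and 7 of 26 of Macf1 (26.9%) were intronic, against 25.2% of pairs outside the 5 genes. In the 10 other genes with at least 20 YTHDF2 peaks, Gm20388 left out, the share was 52.2%. The shares of Herc2, Ubr4 and Macf1 depended on that rule. By the first feature listed for each peak they were 4.88% in Herc2, 0% in Ubr4 and 7.69% in Macf1. By the longest overlap they were 90.2%, 85.3% and 69.2%. For Herc2 and Ubr4 the intronic summits numbered 56 of 75, and each of those peaks also covered exon sequence. Of the bases under the peaks, 98.4% in Ahnak, by the single transcript named for it, 61.3% in Ubr4, 58.4% in Herc2, 35.5% in Macf1 and 2.25% in Bod1l were intronic. In the 3′ UTR lay 1 summit in each of Ahnak, Bod1l, Macf1 and Herc2, and 0 in Ubr4. That was 3.60% of the 111 peaks of the 5 genes, against 36.8% of pairs outside them. In the 10 other genes with at least 20 YTHDF2 peaks, Gm20388 left out, the share was 4.35%, so it was as low there.

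Other genes with many YTHDF2 peaks varied in how often a peak covered an acceptor. By the likeness of their counts in both lists, the genes nearest to Ubr4 were Lrp1 with 33 YTHDF2 peaks and 0 m6A peaks and Dync1h1 with 29 and 2, beside Herc2. Lrp1, an endocytic receptor, and Dync1h1, the heavy chain of cytoplasmic dynein, were also among the 3 nearest to Herc2. Nearest to Macf1 were Dst, the other large spectraplakin, with 23 YTHDF2 and 10 m6A peaks, Kmt2d, a histone methyltransferase, with 22 and 8, and Map4k4 with 24 and 4. Tpr, a nuclear pore protein, with 6 and 13, and Spen, a nuclear RNA-binding repressor, with 10 and 13, were nearest to Ahnak beside Bod1l. Phf3, Parp10 and Tpr were nearest to Bod1l, with 11, 11 and 13 m6A peaks. In Herc1, the giant relative of Herc2, all 24 YTHDF2 peaks covered an acceptor. So did 31 of 33 in Lrp1, 28 of 29 in Dync1h1, 30 of 32 in Rnf213 and 21 of 23 in Dst. The count was 17 of 22 in Kmt2d, 6 of 13 in Kmt2a and 1 of 12 in Zfhx3, the last pair picked with their values known. In the 11 genes outside the 5 with at least 20 YTHDF2 peaks, 59.6% of 364 pairs covered an acceptor. In the 10 of them that remain without Gm20388, the share was 85.4% of 253 pairs.

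RNA of the 5 genes did not pass the test between genotypes. None of the 5 was called at an adjusted p of 0.05 in the authors' Wald test, where 2.32% of 10778 tested genes were, and 0 of the 5 had an unadjusted p under 0.05, where 9.99% of tested genes did. No other tool could be run on this table. Ahnak had the largest value, a log2 fold change of 0.27 ± 0.14 (SE) on the side of Ythdf2 (adjusted p 0.55, unadjusted p 0.060), at a mean normalized count of 30458. Ubr4 was at 0.12 ± 0.11, Bod1l at 0.07 ± 0.12 and Macf1 at 0.05 ± 0.11, and Herc2 was the one negative value at −0.15 ± 0.12, all in the authors' deposited table (adjusted p 0.85 to 0.98).

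These values were precise relative to the table. The SE of the 5 genes lay between 0.11 and 0.14, where the median over tested genes was 0.17. With 1.96 SE on either side, the fold change of Macf1 lay between 0.896 and 1.20, that of Ubr4 between 0.938 and 1.25, that of Bod1l between 0.885 and 1.24, that of Herc2 between 0.764 and 1.07 and that of Ahnak between 0.992 and 1.47. A change of 1.5-fold lies outside all 5 intervals. The replicates are not said to come from separate mice, so these intervals may hold technical spread only. Changes that lie inside the interval of a gene cannot be told from none with 2 libraries a genotype. The mean counts of the others were 12838 in Ubr4, 12469 in Macf1, 3509 in Herc2 and 1995 in Bod1l. They are not set against each other here, because a longer transcript gives more reads and transcript lengths were not used.

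**Figure D5:**
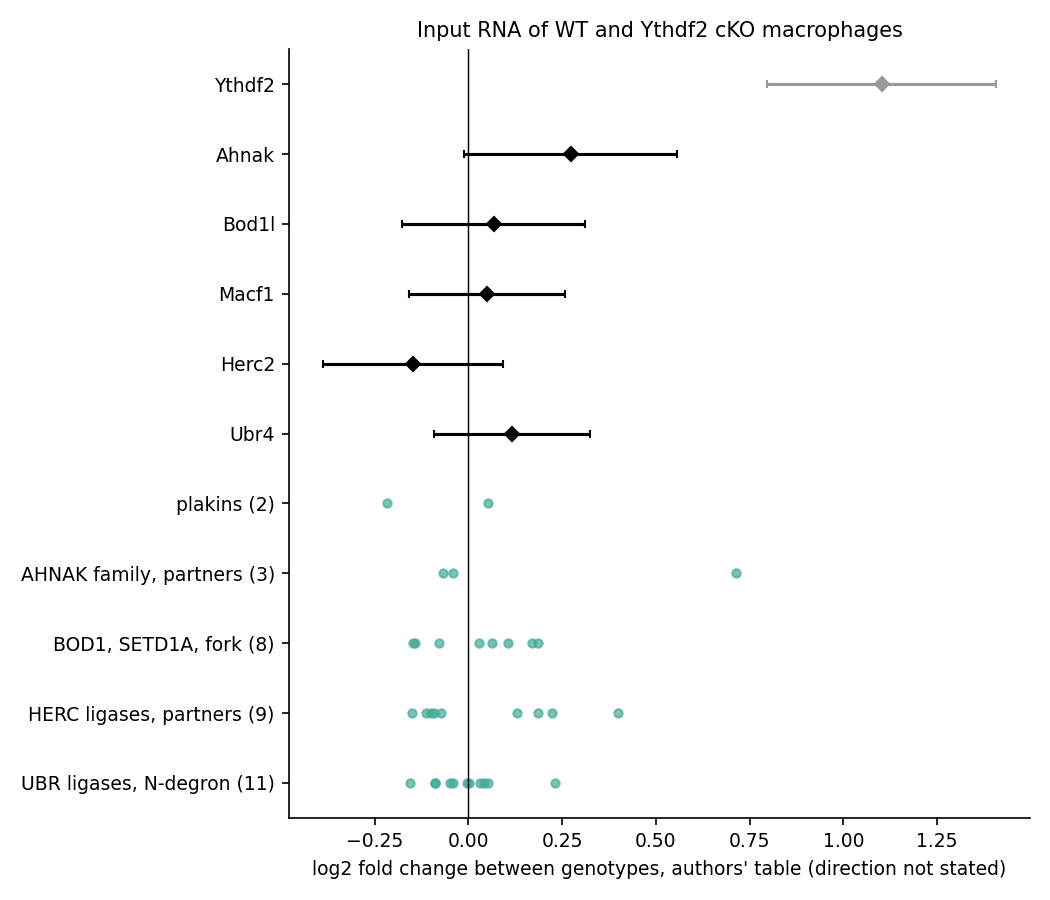
The log2 fold change between genotypes in input RNA, from the authors' deposited table, for Ythdf2 and the 5 genes with bars of 1.96 SE (2 libraries a genotype), and for the tested genes of 5 related lists as points with their number in brackets; the direction is not stated, and Ythdf2 marks the positive side. The bars of the 5 genes cross 0, and that of Ythdf2 (1.10) does not.

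Genes listed with the 5 by family, complex or pathway were also mostly near 0. Among the plakins, 0 of 2 tested genes passed, with Dst at −0.22 ± 0.13. Among the relatives and partners of Ahnak, 0 of 3 passed: Anxa2 and S100a10, which form the complex that Ahnak binds, were at −0.04 ± 0.12 and −0.07 ± 0.15, and Ahnak2 was at 0.71 ± 0.37 in the authors' deposited table. Of 8 tested genes listed with the BOD1 family, the SETD1A complex and fork protection 0 passed (median 0.05), among them Setd1b at 0.06 ± 0.13 and 7 m6A peaks. Of 9 HERC ligases and partners 0 passed (median −0.07), with Herc1 at −0.07 ± 0.12. In this list 1 had an unadjusted p under 0.05, Herc6 at 0.40 ± 0.16, chosen after its value was seen. Of all tested genes 2.32% passed, and 9.99% had an unadjusted p under 0.05 in the authors' Wald test. Of 11 UBR ligases and N-degron genes 0 passed (median −0.00), with Kcmf1, the partner of Ubr4, at 0.05 ± 0.12. The median over all tested genes was −0.01.

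Among the 72 other genes of giant proteins 59 were tested, and the calls numbered 1 with a positive and 0 with a negative value, against 1.76% and 0.557% of all tested genes. That gene was Syne1, a giant spectrin-repeat protein of the nuclear envelope, at 0.61 ± 0.17 (adjusted p 0.017 in the authors' Wald test), with 3 m6A and 7 YTHDF2 peaks. The list's median was −0.01. Of its tested genes 54 carried a YTHDF2 peak and 34 an m6A peak, with medians of 7 and 1 peaks. No other gene of that list had more m6A peaks than Spen with 13, or more YTHDF2 peaks than Lrp1 with 33.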

How the data were processed

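Python 3.11.15 with pandas 2.3.3 and SciPy 1.17.1 was used on 3 deposited files. The authors' deposited comparison of input libraries carries DESeq2-style column names, per the file headers: a mean normalized count (signal averaged over libraries after size factors), a log2 fold change with its SE, a Wald score, and p-values. Their adjusted p equalled a Benjamini-Hochberg adjustment over 10778 genes; 16235 others had none. These calls were copied, not refitted, because the file has no counts, although counts had been planned for. The m6A list gives positions without chromosome, level or p; the file name and labels name exomePeak2. In the YTHDF2 list the authors deposited a fold enrichment (ratio), −log10 q values, and a score. HISAT2, HOMER, ChIPseeker and mm10 stand in the submitters' processing notes, without role or version.

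Of 45541 YTHDF2 rows, 3234 repeats were dropped, leaving 17843 peaks and 19044 pairs of peak and gene. Lists were joined by Ensembl gene, and m6A peaks were placed within 1000 bp of the RefSeq gene (GRCm38.p6; 9289 of 10290). Positions are 1-based. Boundaries came from the transcript features listed beside each peak. Functions were checked on simulated intervals and p-values. The 5 genes and all lists were chosen with earlier results of these data known. Named by rule were all 5 genes, their 3 highest YTHDF2 peaks, their 3 nearest genes by peak counts, and called or most peak-rich genes of related lists; others are descriptive picks. Alternatives are in the closing section.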

Additional observations from a re-analysis of the deposited data

How the results depend on the processing

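No paired analysis was possible because the files hold no values per library; for the same reason no library could be left out. Peaks per kb of exonic length and levels per length were not run, as exonic lengths were not used. Of 79 alternative values, 63 kept their side of the threshold or stayed within their error or within 1.5 times the main count, among them all 10 for the fold changes of the 5 genes (adjusted p of Ahnak 0.55 to 1.00; Herc2 stayed the one negative value) and the number of genes called. Centring shifted all log2 values by 0.04 and took the positive share of called genes from 76% to 66.1%.

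The other 16 moved; apart from how they were built, the cause was not tested. With a fold enrichment of at least 3, Ahnak and Bod1l kept 1 YTHDF2 peak each. Counting all rows, repeats and one row per feature included, gave 8 for Bod1l, 61 for Macf1, 101 for Herc2 and 79 for Ubr4. Without m6A spans over 1000 bp, Bod1l had 8 m6A peaks and Herc2 0. Asking for 50% of the m6A peak to be covered left 20.0% of those of Macf1 and 0% of Herc2. By longest overlap the intronic share of summits was 69.2% in Macf1 and 85.3% in Ubr4. By the first feature listed it was 7.69% in Macf1, 4.88% in Herc2 and 0% in Ubr4. With 50 bp asked on each side of the acceptor (chosen after seeing the data), 85.3% of Ubr4 peaks remained. The main acceptor shares were not planned beforehand either.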

Other observations

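The acceptor side of exons was favoured over the whole YTHDF2 list. Of 19044 pairs of peak and gene, 7924 covered an acceptor and no donor, and 123 a donor and no acceptor. On the plus strand 42.7% were of the first kind and 0.753% of the second, and on the minus strand 40.5% and 0.544%. Genes of giant cytoskeletal proteins varied. All 17 YTHDF2 peaks of Tln1 (talin), all 16 of Flna (filamin A), all 13 of Myh9 (non-muscle myosin) and all 12 of Sptan1 (spectrin) covered an acceptor, beside 21 of 23 in Dst, 9 of 10 in Utrn (utrophin), 8 of 9 in Plec (plectin) and 5 of 7 in Syne1. All 8 were picked with their values known. Which step of the experiment or of the peak calling bears on this asymmetry was not tested.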
